A study of Mus musculus with 13 samples.

Results

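The genes described here are those that span at least 500 kb from start to end in the deposited gene table. Of 30479 genes in the table, 235 reached that span; 11 of them were predicted genes (names of the Gm or Rik kind) and were left out, and the other 224 also had at least 1 RPM (deposited reads scaled to a common library total) in at least 2 of the 13 libraries, so that this level excluded 0 of them. They were thus chosen by the span and by the RPM values of the table, and the genes Fgf14, Opcml, Ptprd, Grm5 and Pde4d were singled out with results of these data known.

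RNA was measured in mice of 3 genotypes at Wfdc15a, a gene of the WAP four-disulfide core family, all at postnatal day 25. Sorted round spermatids (RST), the haploid cells that follow meiosis, gave 3 libraries of knockout (KO), 2 of heterozygous (Het) and 2 of wild-type (WT) mice, with 100 to 200 cells in each, collected by flow cytometry on the DNA stain Vybrant DyeCycle Green. Whole testis gave 3 KO, 1 Het and 2 WT libraries from 2 ng of RNA each. All 13 libraries were made by Smart-seq2, which copies polyadenylated RNA along its length and does not mark the strand. The labels describe neither the allele nor the strain. Separate animals for the libraries of a group are not stated, and the spread behind each p-value may therefore be technical. In a whole-testis library, fewer cells of a type and less RNA per cell cannot be told apart.

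Genes of this size are mostly intron. Many of them encode proteins of the neuronal surface and synapse, such as adhesion molecules, glutamate receptors, ion channel subunits and scaffolds, and several lie at common fragile sites, where the genome tends to break under replication stress. In the testis, round spermatids transcribe a wide range of genes after meiosis, among them genes for the sperm tail that are used in few other cells.

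The median span of the 224 long genes was 730 kb, and 59 spanned at least 1 Mb. They lay on 20 chromosomes, with 11 on X (4.91% of them, against 3.52% of the other genes) and 0 on Y. In GENCODE M21, where 221 were found and 215 lay at identical coordinates, exons made up a median of 1.26% of the span, against 19.8% over all genes, and their exonic length was a median of 10316 bases, against 2671 bases. The genes just inside the limit were Edil3 (501.751 kb), Dock1 (502.985 kb) and Car10 (503.721 kb), and those just outside it were Abca13 (492.317 kb), Cacna1e (493.77 kb) and Dnm3 (495.581 kb). Iqschfp and Schip1, which overlap by 561665 bases, were the only pair of long genes that shared sequence, so their values share reads.

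RefSeq gives a promoter within 1000 bases of the table's start for 138 of the 224 long genes. Over the 300 bases from 250 before to 50 after the start, 80 of these 138 (58.0%) were rich in CG, defined as at least 50% G and C and an observed-to-expected CG ratio of at least 0.6, against 46.1% of 16989 promoters of genes in the table. The letters TATAAA, on either strand, were in 9.42% of the long-gene promoters and 12.0% of all. Of the 16 long genes with the most reads per Mb in round spermatids (at least 100 RPM per Mb outside nested genes), 11 had such a promoter and 7 of these were rich in CG. The 150 bases before the RefSeq start, which for Opcml lies 524 bases inside the table's start, are shown for 3 genes that stand for the range of levels in round spermatids: Spag16 and Iqcm, among the highest, and Opcml, among the low neuronal genes. They were read from build GRCm38.p6 at chr1:69826820-69826969 on the plus strand, chr8:75448544-75448693 on the plus strand and chr9:27791149-27791298 on the plus strand, 5′ to 3′, with each CG in capitals.
Spag16: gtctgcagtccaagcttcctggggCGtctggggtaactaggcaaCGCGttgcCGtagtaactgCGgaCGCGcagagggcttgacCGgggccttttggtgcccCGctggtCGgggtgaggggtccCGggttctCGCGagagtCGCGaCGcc
Iqcm: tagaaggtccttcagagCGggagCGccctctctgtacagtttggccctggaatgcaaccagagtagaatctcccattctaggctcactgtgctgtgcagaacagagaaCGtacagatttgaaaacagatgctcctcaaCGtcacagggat
Opcml: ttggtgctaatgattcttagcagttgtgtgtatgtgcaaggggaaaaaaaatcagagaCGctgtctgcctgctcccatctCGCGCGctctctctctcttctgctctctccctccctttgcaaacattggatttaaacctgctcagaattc
The Spag16 window held 16 CG, and the windows of Iqcm and Opcml held 4 each.

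The values of long genes cover their whole span, with introns and any gene that lies inside. Where a gene of the table lies wholly inside another, the inner gene exceeded its host in any library in 0 pairs, whether both were on the same strand (938 pairs) or on opposite strands (2766 pairs). Among the long genes 112 held at least 1 other gene, and for 21 of them the genes inside accounted for at least 50% of the mean value. Galnt2l, the longest at 4.43 Mb, held 108 genes, among them the ribosomal protein gene Rpl13, and these summed to 100.6% of its value. Fgfr2, a fibroblast growth factor receptor and the next longest at 2.96 Mb, held 45 genes, which made up 94.1% of its 1227 RPM, led by Btbd16 at 478 RPM. In Dmd, the dystrophin gene of Duchenne muscular dystrophy, 91.1% of 145.6 RPM was that of Tsga8, a testis-specific gene on the opposite strand. In Csmd2 87.3% was that of 3 genes led by Hmgb4, and in Tafa1 96.6% was that of 1700123L14Rik. The genes described below therefore had the reads of their nested genes subtracted where a level per Mb is given, and values in RPM are as deposited.

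**Figure D1:**
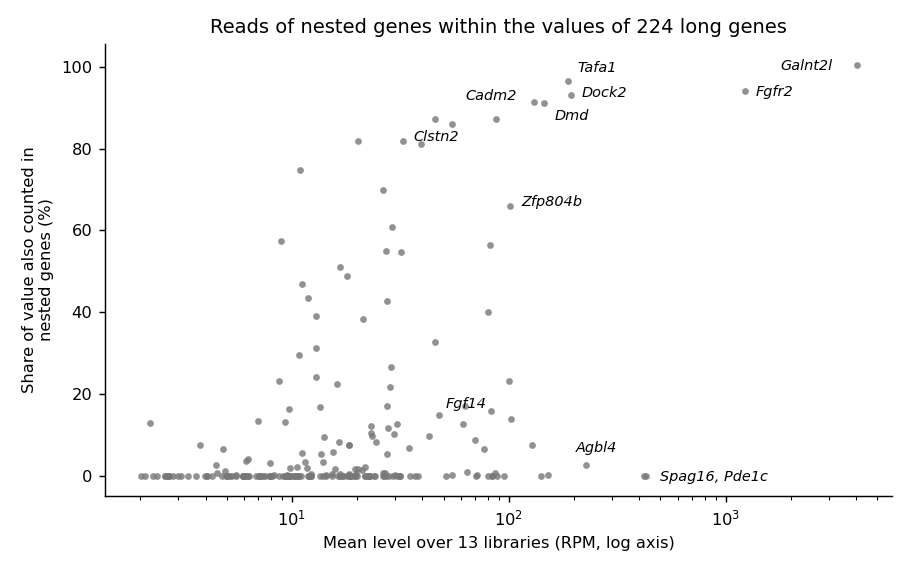
Each point is 1 of the 224 long genes: the x axis is its mean level over the 13 libraries in RPM (log axis) and the y axis the percentage of that level also counted in genes nested inside it. Galnt2l, Fgfr2, Tafa1, Dock2, Cadm2 and Dmd sit above 90%, while Spag16 and Pde1c hold 0 nested reads.

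Outside nested genes, a few long genes, some with roles in the sperm tail and in signalling, had many reads per Mb and most were low. The median over the 224 was 14.8 RPM per Mb in round spermatids (quartiles 9.10 and 28.2) and 13.4 RPM per Mb in testis, and 16 genes reached 100 RPM per Mb in round spermatids, against 12 in testis, while 150 stayed below 20 in round spermatids. Pde1c, a calcium- and calmodulin-dependent cyclic nucleotide phosphodiesterase, led with 804 RPM per Mb in round spermatids and 624 in testis. Spag16, a protein of the central pair of the sperm axoneme, had 517 and 428 RPM per Mb in round spermatids and testis. Then came Fars2, the mitochondrial phenylalanyl-tRNA synthetase (239 and 261), Iqcm, an IQ motif protein (234 and 82.1), Cdkal1, a tRNA-modifying enzyme (230 and 191), Psd3, an exchange factor for the small GTPase ARF6 (219 and 99.1), Stpg2, a sperm-tail PG-rich repeat protein (190 and 136), and Agbl4, a deglutamylase of tubulin (177 and 173).

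Spag16 and Pde1c were high in every library. Spag16 had 501, 470 and 422 RPM in KO, 510 and 516 RPM in Het, against 396 and 434 RPM in WT round spermatids. Pde1c had 435, 558 and 571 RPM in KO, 512 and 487 RPM in Het, against 402 and 314 RPM in WT round spermatids. The KO values of Spag16 overlapped those of WT and lay below both Het values. Those of Pde1c overlapped Het and lay above both WT values. At the other end were Tenm1, a teneurin adhesion protein, Diaph2, a formin, and Fgf13, with means of 1.31, 1.68 and 2.22 RPM in WT round spermatids. Over the 224 genes, the mean level outside nested genes and the span were weakly related (Pearson r = 0.17, Spearman rho = 0.20, across genes, which are not independent replicates).

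Levels in WT round spermatids were set against those in WT testis to ask which long genes were higher in the sorted libraries. Round spermatid markers summed to 2024 to 4318 RPM in WT testis, against 2064 to 2097 RPM in WT round spermatids. Prm1 was higher in WT testis (546 to 1106 against 150 to 152 RPM), and Acrv1 lower (60.5 to 74.4 against 312 to 354 RPM). Sertoli markers summed to 22.5 to 27.2 RPM in WT testis, against 1357 RPM in Het testis. The part of cell composition was not tested. With limma's moderated test on log2(RPM + 1) and Benjamini-Hochberg adjustment over all genes tested, 15 of 224 long genes were higher and 0 lower at an adjusted p under 0.05, where 9.09% of all 20085 genes were called higher and 2.39% lower. The median difference of the long genes was 0.49 log2 units, against 0.20 over all genes, and 174 of 224 were above 0, against 57.9% of all genes. Iqcm differed most: it had 127 and 137 RPM in WT round spermatids, against 15.3 and 12.7 RPM in WT testis, a difference of 3.16 (SE 0.28, limma adjusted p = 0.000349). The other genotypes' libraries lay closer together, with 86.6 to 153 RPM in KO and Het round spermatids, against 47.0 to 78.8 RPM in KO and Het testis.

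Of 17 long genes listed as transcription and chromatin regulators 3 were called higher, and of 34 listed as synaptic organisers and scaffolds 0 were. The first list also counts Nkain2, a membrane protein. Of all genes 9.09% were called higher, and the difference between the lists was not tested. Sox6, an SRY-related factor, had 78.9 and 88.9 RPM in WT round spermatids, against 14.2 and 23.1 RPM in WT testis (2.15, SE 0.35, limma adjusted p = 0.00303). Its paralogue Sox5 had 129 and 182 RPM in WT round spermatids, against 69.9 and 55.9 RPM in WT testis (1.28, SE 0.35, limma adjusted p = 0.0387). Foxp1, a forkhead factor, averaged 43.7 ± 6.32 RPM in WT round spermatids and 13.1 ± 6.39 RPM in WT testis (SD, n = 2 each; 1.74, limma adjusted p = 0.0226). Nav2, a neuron navigator that binds the cytoskeleton, averaged 22.8 ± 3.72 RPM in WT round spermatids and 5.76 ± 0.98 RPM in WT testis (SD, n = 2 each; 1.81, limma adjusted p = 0.0207). Cntnap2, a contactin-associated adhesion protein, averaged 100.8 ± 3.79 RPM in WT round spermatids and 42.3 ± 12.4 RPM in WT testis (SD, n = 2 each; 1.26, limma adjusted p = 0.0206). Atp8a2, a phospholipid flippase, Arhgap15, a Rac GTPase-activating protein, and Atrnl1 were called too, at 1.45, 2.04 and 1.48. Between Het round spermatids and the lone Het testis library, with nested reads subtracted, several of these differences were near 0. Sox6 stood at -0.093, Nav2 at -0.019, Cntnap2 at -0.28, Atrnl1 at 0.019 and Foxp1 at 0.20 there. Atp8a2 stood at 0.42, Arhgap15 at 0.79 and Sox5 at 1.10.

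The other 6 calls went with nested genes. Dmd, Clstn2, Prkg1, Plcb1, Zfp804b and Nell1 were higher as deposited but not once the reads of the genes inside them were subtracted, an alternative chosen after seeing the data. Dmd outside Tsga8 had 8.76 and 11.2 RPM in WT round spermatids, against 4.77 and 4.37 RPM in WT testis (0.97, limma adjusted p = 0.417). Clstn2, a calsyntenin of the synapse, had 8.94 and 4.32 RPM left in WT round spermatids, against 2.98 and 10.3 RPM in WT testis (0.12, limma adjusted p = 0.960). After subtraction 13 long genes were called, of which 9 were among the 15, and Frmd4a, Galnt2l, Fgfr2 and Grip1 were new; for Galnt2l and Frmd4a the remainder was 0 in both WT testis libraries, so it rests on the subtraction. The count fell to between 2 and 7 when any of the 4 WT libraries was left out, and to 2 with libraries centred on their medians.

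**Figure D2:**
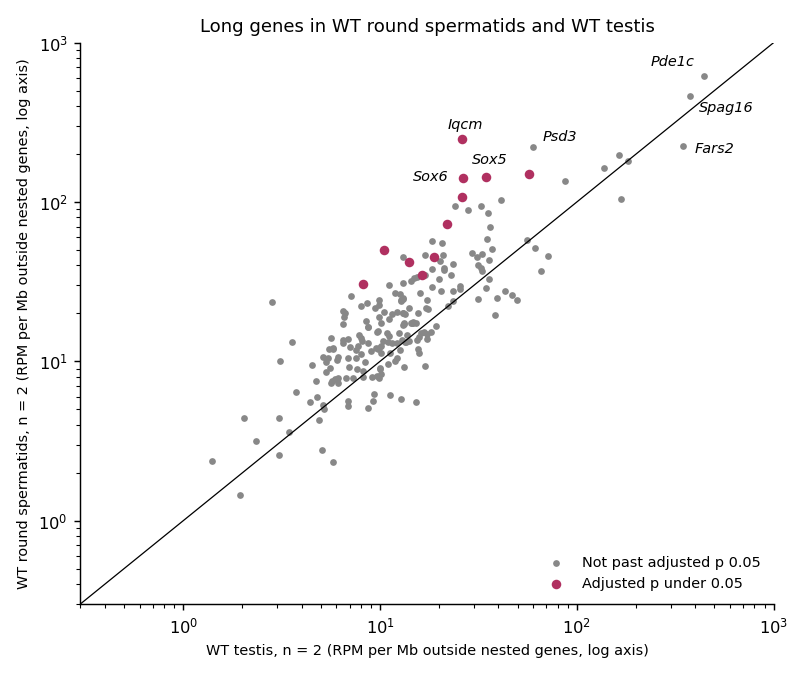
Each point is a long gene: its mean over 2 WT round spermatid libraries (y axis) against its mean over 2 WT testis libraries (x axis), in RPM per Mb outside nested genes on log axes, with the line of equal values. Coloured points had an adjusted p under 0.05 after subtraction; most points lie above the line, and 2 genes with 0 left in WT testis (Galnt2l and Frmd4a) are not drawn.

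The same comparison in the other genotypes called fewer long genes. Between KO round spermatids and KO testis, Nell1 was higher (1 of 224, against 0.936% of all genes), and Zbtb20, a zinc finger repressor, Magi2, a synaptic and tight-junction scaffold, and Lrba, a vesicle protein of immune cells, were lower (3 of 224, against 1.42% of all genes). Zbtb20 had 12.3, 26.9 and 21.2 RPM in KO round spermatids, against 61.6, 83.5 and 87.1 RPM in KO testis (-1.94, limma adjusted p = 0.0214). Magi2 had 35.6, 38.3 and 38.8 RPM in KO round spermatids, against 318, 121 and 82.9 RPM in KO testis (-1.95, limma adjusted p = 0.0397). Lrba had 9.56, 7.73 and 10.9 RPM in KO round spermatids, against 41.2, 25.3 and 33.7 RPM in KO testis (-1.71, limma adjusted p = 0.0418). Nell1 was not called with nested reads subtracted (1.31, limma adjusted p = 0.218), and Lrba was not with the replicate number as a block (limma adjusted p = 0.0577), where 4 long genes were called. The groups do not overlap for Zbtb20, Magi2 and Lrba, but without testis KO replicate 1 the comparison called 65 long genes, and without any other KO library it called 0. Between Het round spermatids and Het testis 0 of 224 were called (limma, smallest adjusted p among long genes 0.375; 25 at an unadjusted p under 0.05, 15 higher, against 4.39% of all genes, and 10 lower, against 7.78%; voom 0), where 0% of all genes were called in either direction.

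Wfdc15a itself was lower in KO and Het than in WT, and KO overlapped Het in both cell types: it had 48.1 to 97.9 RPM in KO, 65.0 to 71.5 RPM in Het and 234 to 267 RPM in WT round spermatids, and 36.8 to 116 RPM in KO, 48.4 RPM in Het and 207 to 212 RPM in WT testis. Libraries had 7375270 to 20927428 reads, at which a gene with 0 reads could be present at up to 0.143 to 0.407 RPM (3 reads, counting error only). In both cell types the libraries fell into 2 sets on the leading principal component of the other genes (55.9% of the variance in round spermatids, 71.7% in testis): WT with KO replicate 1 in set 1, and Het with KO replicates 2 and 3 in set 2. The labels name no such batch. Markers of peritubular and stromal cells, summed, were at 2.72 RPM in KO replicate 1 and 619 and 1066 RPM in the other KO round spermatids, 483 to 537 RPM in Het and 4.56 to 5.55 RPM in WT. The high sums came mostly from Dcn and collagens. In KO replicate 3 Col3a1 had 398 RPM and Dcn 299 RPM, while Acta2 and Myh11 had 8.38 and 3.76 RPM. Within a set, KO can be compared with WT (set 1) or with Het (set 2), and across sets genotype and set cannot be told apart. Testis KO replicate 1 had the fewest reads and 11 long genes at 0, against at most 1 in any other library.

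In round spermatids, most long genes had lower values in KO than in WT and Het, and none of them passed the test singly. KO minus the mean of WT and Het was below 0 for 208 of 224 long genes, where 54.5% of 18075 genes tested were below 0, with a median of -0.65 log2 units against -0.04 over all genes. In 132 genes the difference was below -0.5 and in 48 below -1, while 1 was above 0.5. All 3 KO libraries lay below all 4 others in 89 of 224 long genes, against 4.9% of all genes, and above them in 0, against 1.36%. Limma called 0 of 224 (smallest adjusted p 0.989; 81 lower at an unadjusted p under 0.05, against 3.97% of all genes, and 0 higher, against 0.592%), and voom called 0. With the set as a covariate it called 5 of 224, all lower, against 0.105% of all genes; they are the 5 genes described next.

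The 5 genes named at the outset had the smallest p-values of the long genes in this comparison, and their choice used it, so that their values are given as a description. Fgf14, an intracellular partner of voltage-gated sodium channels (chr14:123977907-124677127, minus strand, mm10), had 26.2, 32.0 and 17.1 RPM in KO, 62.1 and 84.2 RPM in Het, against 76.5 and 70.7 RPM in WT round spermatids. Opcml, a cell adhesion protein of the IgLON family (chr9:27790775-28925410, plus strand), had 2.68, 5.04 and 5.47 RPM in KO, 16.3 and 19.1 RPM in Het, against 13.5 and 16.2 RPM in WT round spermatids. Every KO value of both genes lay below every Het and WT value. Ptprd, a receptor tyrosine phosphatase that organises synapses (chr4:75941238-78211961, minus strand), had 10.1, 14.5 and 13.3 RPM in KO, 28.6 and 32.2 RPM in Het, against 33.6 and 30.4 RPM in WT round spermatids. Grm5, the metabotropic glutamate receptor mGluR5 (chr7:87584168-88134907, plus strand), had 0.96, 0.64 and 0.85 RPM in KO, 5.99 and 6.10 RPM in Het, against 5.43 and 8.14 RPM in WT round spermatids. Pde4d, a phosphodiesterase that degrades cyclic AMP (chr13:108449948-109953461, plus strand), had 12.5, 19.0 and 11.4 RPM in KO, 33.8 and 34.6 RPM in Het, against 30.5 and 34.4 RPM in WT round spermatids. These 3 genes did not overlap between KO and the others either, and Het stood near WT in all 5.

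On the log2(RPM + 1) scale, KO minus the mean of WT and Het was -1.55 (SE 0.26) for Fgf14, -1.71 (SE 0.33) for Opcml, -1.25 (SE 0.25) for Ptprd, -2.02 (SE 0.34) for Grm5 and -1.19 (SE 0.26) for Pde4d. Within set 1, KO replicate 1 minus WT was -1.46, -2.10, -1.57, -1.97 and -1.30 for the same genes in that order. Within set 2, KO replicates 2 and 3 minus Het was -1.59, -1.58, -1.07, -2.01 and -1.16. Reads of nested genes made up 14.8% of the Fgf14 value, 2.05% of the Ptprd value and 0% of the others.

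**Figure D3:**
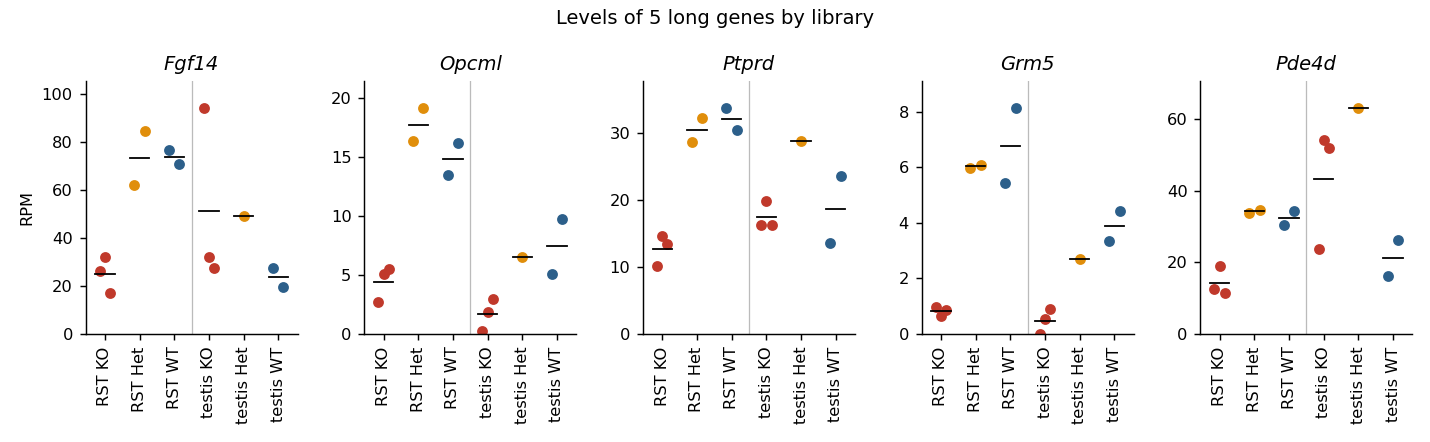
Level in RPM (y axis, from 0) of Fgf14, Opcml, Ptprd, Grm5 and Pde4d in each library, with round spermatids (RST) left and testis right of the grey line; points are libraries and bars group means. In round spermatids the 3 KO libraries lie below the Het and WT libraries for each gene, while in testis they do so for Opcml and Grm5 only.

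Most long relatives of these genes on lists of gene families were below 0 in the same comparison, and limma called 0 of them. Over all long genes 208 of 224 were below 0, against 54.5% of all genes, so this direction is not particular to a family. All 4 long IgLON genes were below 0: Lsamp had 10.9, 13.9 and 10.2 RPM in KO, 26.2 and 26.0 RPM in Het, against 19.0 and 19.3 RPM in WT (-0.90, SE 0.28), Negr1 stood at -0.71 (SE 0.30) and Ntm, the neighbour of Opcml, at -0.48 (SE 0.35). Of the intracellular fibroblast growth factors, Fgf12 stood at -0.89 (SE 0.31) and Fgf13 at -0.55 (SE 0.47). Of the metabotropic glutamate receptors, Grm8 had 6.02, 9.55 and 5.61 RPM in KO, 18.6 and 10.8 RPM in Het, against 21.3 and 15.7 RPM in WT (-1.12, SE 0.34), and Grm7 stood at -0.79 (SE 0.32). Values of the KO libraries lay below the others for Lsamp, Negr1, Fgf12, Grm7 and Grm8, and overlapped them for Ntm and Fgf13. They lay below the others in 89 of 224 long genes and in 4.9% of all genes.

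Among 6 long receptor tyrosine phosphatases 5 were below 0, with Ptprt at -1.43 (SE 0.43) and Ptprk at 0.02 (SE 0.34), against 5 of 12 other genes of that list. Of the long phosphodiesterases Pde4b stood at -0.37 (SE 0.43) and Pde1c at 0.30 (SE 0.21). Synaptic organisers and scaffolds, such as teneurins, neuregulins and the Csmd proteins, were below 0 in 32 of 34 long genes, with a median of -0.73, and in 11 of 15 shorter genes of the list, with a median of -0.48. Ion channels and their partners were below 0 in 13 of 13 long genes (median -0.78) and 37 of 44 others (median -0.57), for example Kcnd2, a potassium channel, at -1.03 (SE 0.43). This list counts the flippase Atp8a2, while Asic2 was on the synaptic list. Cadherins and catenins were below 0 in 9 of 9 long genes (median -0.61) and in 12 of 14 others (median -0.50), and axon guidance genes in 8 of 8 (median -0.80) and 17 of 25 (median -0.48), with the receptor Robo2 at -1.19 (SE 0.41). In other lists the shorter genes stood lower: contactins and their partners were below 0 in 5 of 6 long genes (median -0.62) and 5 of 5 others (median -1.25), and genes of the dystrophin complex and glycosylation in 15 of 16 (median -0.52) and 11 of 14 (median -0.61). The last list also counts the neuron navigators Nav2 and Nav3 and the ankyrins Ank2 and Ank3. These counts stand beside 208 of 224 long genes and 54.5% of all genes below 0.

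Lists without a tie to neurons showed the same direction, as did 208 of 224 long genes and 54.5% of all genes. Transcription and chromatin regulators were below 0 in 16 of 17 long genes (median -0.65) and 35 of 42 others (median -0.32), genes at common fragile sites in 20 of 21 long genes (median -0.74) and the 1 other tested (-0.93), with Fhit, a diadenosine triphosphate hydrolase, at -1.06 (SE 0.27), and kinases and lipid signalling genes in 7 of 8 long genes (median -0.43) and 21 of 25 others (median -0.26). Limma called 0 genes of any of these lists in this comparison. Of the 16 long genes above 0, those with the smallest unadjusted p were Pde1c, Cdkal1 (0.28, SE 0.20), Lama2, a laminin chain (0.61, SE 0.55), Tafa1 (0.14, SE 0.20) and Stpg2 (0.13, SE 0.19), none past the threshold.

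The difference was graded with span over all genes. The median of KO minus WT and Het in round spermatids was -0.04 for genes under 10 kb, 0.02 for 10 to 50 kb, -0.06 for 50 to 100 kb, -0.18 for 100 to 200 kb and -0.37 for 200 to 500 kb. It was -0.59 for the 175 genes of 500 kb to 1 Mb and -0.77 for the 60 of at least 1 Mb, predicted genes included, and in the last class 98.3% of genes were below 0. The bins share their libraries, so this is a description of these libraries. Within set 1 the median of the long genes was -0.58, against -0.12 over all genes, and 189 of 224 were below 0 (59.5% of all). Within set 2 it was -0.67, against -0.03, and 206 of 224 were below 0 (53.2% of all); in 178 of 224 both were below 0, against 34.6% of all genes. Subtracting nested genes left a median of -0.67 and 210 genes below 0.

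**Figure D4:**
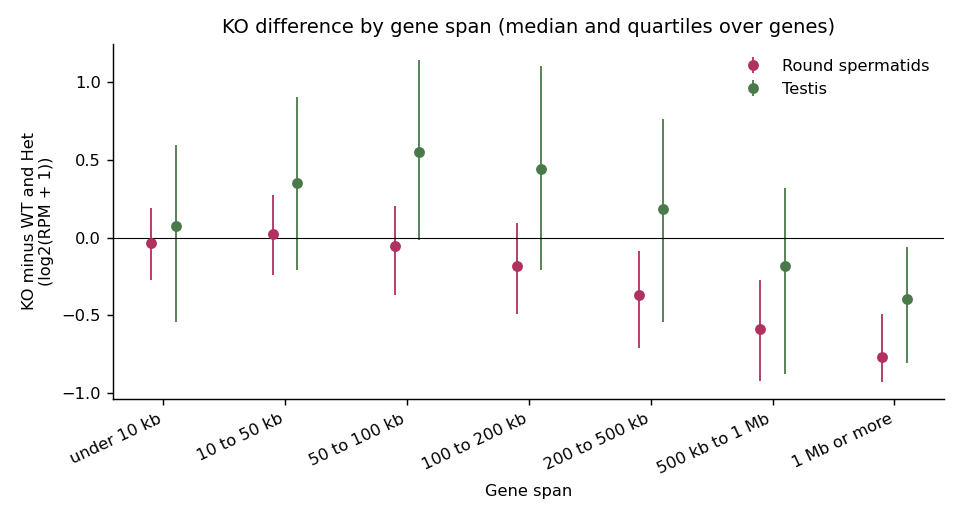
Median (points) and quartiles (bars) over genes of the KO minus WT and Het difference in log2(RPM + 1) (y axis), in classes of gene span (x axis), for round spermatids and testis. In round spermatids the median is -0.04 under 10 kb and -0.77 at 1 Mb or more; in testis the medians run 0.07, 0.35, 0.55, 0.44, 0.18, -0.19 and -0.40 from the shortest class to the longest, highest at 50 to 100 kb.

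The number of reads per Mb of span differed between the same libraries. The median of the long genes outside nested genes was 8.62, 12.1 and 9.16 RPM per Mb in KO, 19.0 and 17.8 in Het and 17.2 and 17.1 in WT round spermatids, so the KO libraries lay below the others. Families of short receptor genes, chosen with earlier results known, lay the same way. The 1138 olfactory receptor genes, of which 796 to 972 were at 0 in a round spermatid library, summed to 23.1, 19.8 and 17.8 RPM per Mb in KO, 31.7 and 32.4 in Het and 35.8 and 37.3 in WT round spermatids. The 350 vomeronasal receptor genes summed to 14.1, 11.5 and 9.38 RPM per Mb in KO, 21.2 and 20.5 in Het and 16.4 and 21.4 in WT round spermatids. These genes are used for smell and pheromone sensing, and only a few olfactory receptors are known in sperm. In testis the medians of the long genes were 7.39, 12.2 and 12.6 RPM per Mb in KO, 18.9 in Het and 9.29 and 14.3 in WT. The part of such a density in the differences of the long genes was not tested.

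**Figure D5:**
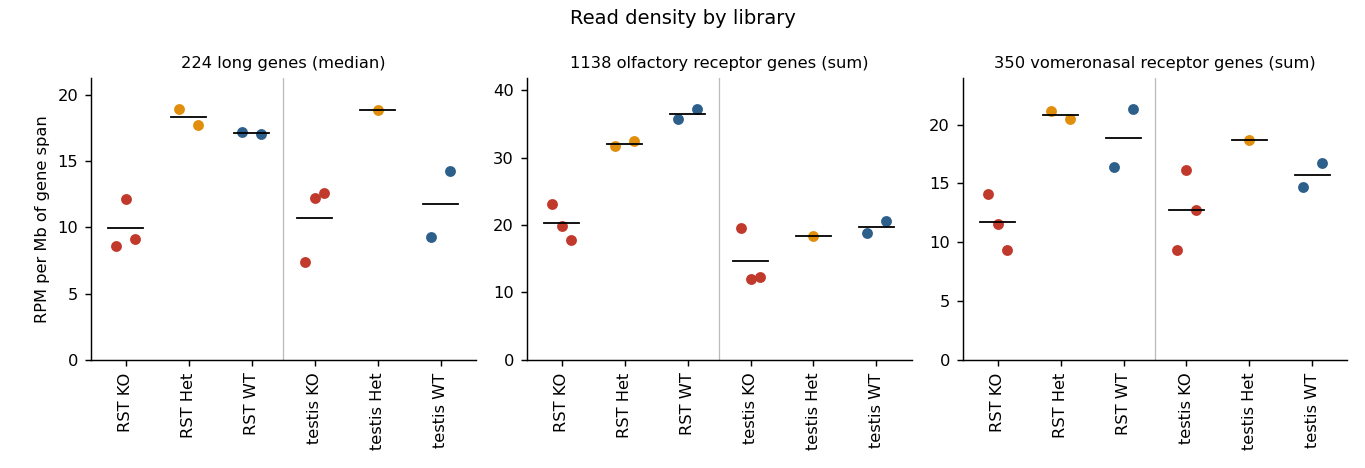
RPM per Mb of gene span (y axis, from 0) by library for the 224 long genes (median, outside nested genes), 1138 olfactory receptor genes and 350 vomeronasal receptor genes (sums); points are libraries and bars group means, with RST left and testis right of the grey line. In round spermatids the KO libraries lie below Het and WT in all 3 panels.

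Markers of neurons and germ cells were looked at in the same libraries. The 10 neuron markers, among them the long gene Syt1, summed to 61.4 to 76.7 RPM in KO, 69.6 to 72.9 RPM in Het and 99.1 to 99.9 RPM in WT round spermatids, and to 31.3 to 92.3 RPM in KO, 84.7 RPM in Het and 44.6 to 58.0 RPM in WT testis. Map2, a microtubule protein of dendrites, and Syt1 were the highest of them in all 7 round spermatid libraries, at 32.2 to 62.3 and 11.9 to 34.2 RPM. Nefl, a neurofilament chain, was at 0 in 6 of the 7. In testis Tubb3 had 0, 41.9 and 56.8 RPM in KO, 36.0 RPM in Het, against 1.74 and 2.66 RPM in WT. Syt1 went the other way there, with 7.05, 15.7 and 9.69 RPM in KO, 16.9 RPM in Het, against 32.7 and 38.5 RPM in WT. Round spermatid markers summed to 1160 to 1924 RPM in KO, 1513 to 1579 RPM in Het and 2064 to 2097 RPM in WT round spermatids, and to 583 to 1525 RPM in KO, 684 RPM in Het and 2024 to 4318 RPM in WT testis. In testis members of this list went both ways. Prm1 had 16.7 to 268 RPM in KO, 26.2 RPM in Het and 546 to 1106 RPM in WT testis. Acrv1 had 126 to 162 RPM in KO, 147 RPM in Het and 60.5 to 74.4 RPM in WT testis. Spermatocyte markers were at 1417 to 1789 RPM in KO, 1734 to 1847 RPM in Het and 1230 to 1347 RPM in WT round spermatids, present in every sorted library. Of the WT sums, Pgk2 alone gave 750 and 714 RPM. Sycp3 had 211 and 185 RPM there, and Meiob 11.8 and 23.3 RPM. Their part in the differences was not tested.

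Against WT alone, KO round spermatids gave 0 calls of 224 (limma, smallest adjusted p 0.121; 80 lower at an unadjusted p under 0.05, against 9.92% of all genes, and 3 higher, against 11.2%; voom 0), with a median of -0.59, against 0.03 over all genes. Leaving out KO replicate 1, the KO library in the same set as WT, gave 72 calls. Het minus WT in round spermatids gave 0 calls (limma, smallest adjusted p among long genes 0.0626; 14 higher and 11 lower at an unadjusted p under 0.05, against 16.1% and 9.07% of all genes; voom 0) and a median of 0.12, against 0.23 over all genes, which centring the libraries turned to -0.16.

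In whole testis the long genes were lower in KO relative to all genes, but their libraries overlapped more. KO minus the mean of WT and Het was below 0 in 142 of 224 long genes, against 36.8% of all genes, with a median of -0.26, against 0.29 over all genes. All 3 KO libraries lay below the others in 48 of 224, against 3.96% of all genes, and above them in 1, against 4.47%. Limma called 0 (smallest adjusted p among long genes 0.890; 7 lower at an unadjusted p under 0.05, against 1.02% of all genes, and 0 higher, against 1.55%), and voom called 0. Within set 1 the median of KO replicate 1 minus WT was -0.51, against -0.14 over all genes, and within set 2 it was -0.45, against -0.03, where KO replicate 1 and the Het library stand alone on their side.

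The lowest difference in testis was that of Lrrtm4, a leucine-rich synaptic adhesion protein, at -2.01 (SE 0.59). Grm5 stood at -1.63 (SE 0.56), with 0, 0.55 and 0.89 RPM in KO, 2.69 RPM in Het, against 3.36 and 4.43 RPM in WT testis. Opcml had 0.27, 1.88 and 2.91 RPM in KO, 6.53 RPM in Het, against 5.04 and 9.76 RPM in WT testis (-1.70, SE 0.77). For both genes KO lay below the others, as in round spermatids. Fgf14 had 94.0, 32.2 and 27.6 RPM in KO, 49.0 RPM in Het, against 27.6 and 19.4 RPM in WT testis, and its difference of 0.54 (SE 0.68) turned to -0.00227 without KO replicate 1. Pde4d had 23.6, 54.2 and 52.0 RPM in KO, 63.1 RPM in Het, against 16.3 and 26.1 RPM in WT testis (0.42, SE 0.69), and Ptprd stood at -0.26 (SE 0.63). KO minus WT alone gave 0 calls in testis (limma, smallest adjusted p 0.0710; 20 higher and 19 lower at an unadjusted p under 0.05, against 17% and 6.54% of all genes; voom 0) but 98 without KO replicate 1, and Het minus WT gave 0 (smallest adjusted p 0.177; 18 higher and 4 lower at an unadjusted p under 0.05, against 14.9% and 4.9%; voom 0).

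The KO minus WT difference in round spermatids was also tested against that in testis, with all 13 libraries fitted together. It was lower in round spermatids for 4 of 224 long genes, where 1.84% of all genes were called lower and 0.294% higher. Nbea, a neurobeachin that anchors protein kinase A, had 9.32, 30.6 and 12.4 RPM in KO and 40.2 and 28.3 RPM in WT round spermatids, and a mean of 47.7 ± 2.04 RPM in KO (SD, n = 3) and 10.1 and 10.6 RPM in WT testis (-3.19, SE 0.63, limma adjusted p = 0.0326). Zbtb20 had 12.3 to 26.9 RPM in KO and 20.7 to 21.6 RPM in WT round spermatids, and 61.6 to 87.1 RPM in KO and 9.55 to 11.7 RPM in WT testis (-2.87, SE 0.52, limma adjusted p = 0.0261). Nav2 (-2.66, SE 0.56, limma adjusted p = 0.0397) and Iqcm (-2.19, SE 0.36, limma adjusted p = 0.0200) were the other two. For each, the KO libraries of testis lay above both WT libraries. Markers of somatic cells were also higher in some of these libraries: Sertoli markers summed to 17.9, 1398 and 1467 RPM in KO, 1357 RPM in Het, against 22.5 and 27.2 RPM in WT testis. Leydig markers summed to 119.6, 770 and 557 RPM in KO, 805 RPM in Het, against 41.8 and 51.2 RPM in WT testis. Peritubular and stromal markers summed to 207 to 1416 RPM in KO and 915 RPM in Het, against 24.8 to 28.3 RPM in WT testis. In KO replicate 1, members of the Leydig and peritubular lists went both ways. Insl3 had 88.7 RPM there, against 18.4 and 13.2 RPM in WT, but Cyp11a1 0.271 RPM, against 5.75 and 8.36 RPM. Dcn had 72.9 RPM, against 2.39 and 3.29 RPM in WT, but Acta2 0.271 RPM, against 6.51 and 12.4 RPM. The part of these cells was not tested. The Het testis library had 81.9 RPM of Nbea, 111 RPM of Zbtb20, 27.5 RPM of Nav2 and 78.8 RPM of Iqcm, above WT as well. With centred libraries 0 of the 4 calls held, 50 were made without testis KO replicate 1, and 0 to 3 without any other library; the median of the long genes, -0.43, was close to the -0.48 of all genes and turned to 0.39 on centring.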

How the data were processed

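RNA of 13 libraries was analysed from the deposited table of log2 RPM per gene. The submitters' processing notes name build mm10, HISAT2 2.1.0, Trim Galore 0.6.6 and FastQC 0.11.8 without their roles. Their counting program and annotation: not given in the sources used here. The deposited log2 values came from whole reads over a library total (99.8% to 100.0% of values whole within 0.01 read), with 0.9 read for a gene at 0, which was set back to 0. Smart-seq2 reads carry no molecular identifiers, so limits at 0 reads cover counting error only.

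The members, gene lists and tests were chosen with earlier results of these data known. Tests used log2(RPM + 1), which makes differences of low genes smaller than they are, over genes that reached 1 RPM in 2 or more of the libraries fitted, with limma 3.58.1 in R 4.3.3 (lmFit, eBayes with trend), two-sided, at a Benjamini-Hochberg adjusted p under 0.05 over all genes. Each cell type was fitted apart for genotype; round spermatids against testis, and the difference of KO effects, came from a fit of all libraries. Because the unit is log2 RPM and not a count, voom on recovered reads was an alternative. The fits were tested on simulated data. Genes were named by a fixed rule: the 5 genes given at the outset, the 5 largest differences past the threshold in each direction per comparison, filled by the smallest unadjusted p; the 8 highest in WT of each cell type; the 2 longest; the neighbours of the span limit; and members of family lists. Others were named after their values were seen. Spans and nesting came from the table, exons from GENCODE M21 and promoters from RefSeq (GRCm38.p6). Other settings were no filter on low values, a pseudocount of 0.1 RPM, a minimum mean of 5 RPM, centred libraries, quality weights, a replicate block, the set as a covariate, and each library left out. The main tests were unpaired, and replicate numbers entered only through the replicate block. Deviations of same-numbered KO round spermatid and KO testis libraries correlated at 0.28 to 0.50 in all 3 pairs. These also follow the library sets, so they do not establish pairing.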

Additional observations from a re-analysis of the deposited data

Results flagged for a closer look

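Nbea, Zbtb20, Nav2 and Iqcm were picked out because their KO minus WT difference in round spermatids differed from that in testis by limma's test of the difference itself, at -3.19, -2.87, -2.66 and -2.19 log2 units. Magi2, Nav2 and Tenm1 were picked out because every KO library lay on the opposite side of both WT libraries in the 2 cell types. Nav2 and Magi2 were lower in KO than in WT round spermatids, by -0.74 and -0.36 on the log2(RPM + 1) scale, and higher in KO than in WT testis. Tenm1 was higher in KO than in WT round spermatids, by 0.73, and lower in KO than in WT testis, at 0.47 to 1.14 RPM in KO and 1.30 to 2.22 RPM in WT testis. For Magi2 the test of the difference gave -2.69 (limma adjusted p = 0.0614). For Tenm1 it gave 1.30 (limma adjusted p = 0.315). By side of WT alone, without that test, the 3 genes were 3 of 23 looked at, and that pattern was not tested. In testis, KO replicates 2 and 3 lie in the other library set than WT, so that genotype and set cannot be told apart there. No group held the 4 libraries needed to look for a library far from the others.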

How the results depend on the processing

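The number of long genes was 348 at a minimum span of 400 kb and 59 at 1 Mb. For WT round spermatids against WT testis (15 calls), centred libraries gave 2, weights 54 and the set covariate 75, and leaving out a library gave 2 to 7. For KO round spermatids against KO testis (4 calls), a pseudocount of 0.1 gave 2, a mean of at least 5 RPM 13, centring 17, weights 107 and the set covariate 75, and leaving out a library gave 0 to 65. For Het round spermatids against Het testis (0 calls), weights gave 47 and the set covariate 23. For KO against WT round spermatids (0 calls), weights gave 77, the set covariate 4 and nested subtraction 1, and leaving out a library gave 0 to 72. For KO against WT testis (0 calls), weights gave 105, the replicate block 1 and the set covariate 85, and leaving out a library gave 0 to 98. For KO against WT and Het, the set covariate gave 5 in round spermatids and weights gave 118 in testis, from 0 each. For Het against WT round spermatids (0 calls), centring gave 2, weights 22, the replicate block 5 and nested subtraction 1. For Het against WT testis (0 calls), weights gave 76, the replicate block 7 and the set covariate 27, and centring moved the median to -1.03. For the difference of KO effects (4 calls), a mean of at least 5 RPM gave 8, centring 0, weights 62 and the set covariate 55, and leaving out a library gave 0 to 50.

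Among the genes followed through the settings by the naming rule, directions turned in 9 cases. With nested genes subtracted, Plcb1 and Nell1, not among them, stood at -0.96 and -1.05 (WT round spermatids minus WT testis, both called higher as deposited). Galnt2l was then at 4.39 (WT round spermatids minus WT testis), Cdh12 at -0.11 (KO round spermatids minus KO testis), Tafa1 at -0.85 (KO minus WT and Het, round spermatids) and Cadps2 at -0.63 (difference of KO effects); this subtraction was chosen after seeing the data. Leaving out a library put Tafa1 between -0.00534 (without KO replicate 1) and 0.23. In testis, KO minus WT and Het of Pde4d was at -0.056 with centring, -0.029 with the set covariate and, with a library left out, between -0.00248 (without WT replicate 1) and 0.94, and that of Fgf14 between -0.00227 (without KO replicate 1) and 0.89. The cause was not tested. Of the other settings of single genes, 855 kept direction and call, 87 gained and 80 lost a call. Same-numbered libraries correlated at -0.021 to 0.049 within a cell type by pairing check, and at -0.023 across cell types in WT, and were not taken as pairs there. Across cell types in KO all 3 pairs correlated at 0.28 to 0.50, above 0.1, and KO replicate 1 is also in another library set than KO replicates 2 and 3; there the block gave 4 calls, as without it, but not Lrba. Leaving out the lone testis Het library could not be fitted for the 2 comparisons that rest on it. Depth limits genes near 1 RPM, such as Grm5 in KO.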
